A study of Mus musculus with 6 samples.

Results

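The BCL-2 family decides whether a cell keeps its mitochondria intact or commits to apoptosis. Of the 10 members described here, Bcl2, Bcl2l1, Mcl1, Bcl2a1b and Bcl2a1d encode survival proteins. Bax and Bak1 encode the proteins that open pores in the outer mitochondrial membrane. Bcl2l11, Pmaip1 and Bbc3 encode the death-promoting BH3-only proteins BIM, NOXA and PUMA. The members were taken by gene symbol, and all 10 were among the 15212 genes of the count table. The question was which of them differed in activated lung ILC2s that lacked the immune checkpoint VISTA.

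Survival proteins hold BAX and BAK in check by binding them and by capturing BH3-only proteins, and free BH3-only proteins release the pore formers, after which cytochrome c leaves the mitochondria and caspases are activated. In lymphocytes, cytokines such as IL-7 and IL-2 act through STAT5 to sustain survival members, BIM removes cells that have lost these signals, and PUMA and NOXA answer p53 among other inputs. BCL2A1 is a target of NF-kB. Group 2 innate lymphoid cells (ILC2s) are lung lymphocytes without a rearranged antigen receptor that respond to IL-33 by releasing IL-5 and IL-13.

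The RNA-Seq data covered 3 Vsir-/- libraries (VISTA KO in the labels) and 3 WT libraries of FACS-sorted lung ILC2s. Vsir-/- mice carried a germline deletion (Vsirtm1Lex) of Vsir, the gene of VISTA, in all cells and not in ILC2s alone, and all mice were on a BALB/c background, sex-matched and 5 to 8 weeks old. Mice of both genotypes received 0.5 µg of rmIL-33 intranasally on 3 days, ILC2s were isolated on day 4 (activated ILC2s, aILC2s), and 10 pg of RNA went into each library, so no unstimulated library stands beside these. The labels name the cells as fresh in one field and as cultured in another, and it is not stated that each library had its own animals. The spread behind each p-value is therefore that between libraries and may be technical.

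The deposited values are estimated counts per gene, 15680892 to 29197999 per library, given here as CPM (counts scaled to library size with TMM factors). Vsir had 0, 2 and 0 counts in Vsir-/- libraries against 109, 185 and 126 counts in WT libraries. All 11 ILC2 markers listed were measured, and they moved both ways in Vsir-/- libraries: Gata3, Icos, Thy1 and Rora were lower (log2 fold changes -0.80, -1.16, -1.88 and -0.76), Il7r, Il2ra, Il5, Il13 and Areg were higher (0.96, 1.13, 0.92, 1.53 and 1.48), and Il1rl1 and Ptprc were not called. Their part in the results was not tested. The summed markers of B cells (1 of 3 listed was measured), NK cells (1 of 4) and neutrophils (3 of 5) each stayed under 1 CPM. Those of macrophages, monocytes and dendritic cells summed to 9.34 to 11.4 CPM in Vsir-/- and 12.2 to 20.7 CPM in WT. Those of epithelium summed to 4.24 to 5.42 CPM in Vsir-/- and 21.4 to 21.9 CPM in WT. Of the 3 endothelial markers listed only Pecam1 was measured, at 48.3 to 53.8 CPM in Vsir-/- and 35.6 to 41.1 CPM in WT. The endothelial value is therefore that of a single gene, and the part of these markers in the results was not tested. In both genotypes the labels give replicates 1 and 2 a common number, to which the label of replicate 2 adds P1. WT replicate 2 was the deepest library. Genotypes were compared with edgeR's quasi-likelihood test over 13166 genes, with Benjamini-Hochberg adjustment and a threshold of 0.05. Fewer cells of a type and less RNA per cell cannot be told apart in such bulk libraries.

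The survival genes moved in opposite directions. In Vsir-/- aILC2s the Bcl2 transcript fell to 0.489 of its WT level and that of Bcl2l1, which encodes BCL-XL, rose 2.15-fold. Mcl1 did not pass the test. These are transcript levels, and the libraries hold no measure of the proteins. By flow cytometry the authors found more BCL2 protein in Vsir-/- ILC2s than in WT ILC2s, the opposite direction to the transcript here. The cause of that difference was not tested. Both Bcl2a1 copies were higher. Of the pore formers neither passed the test, and of the BH3-only genes Bcl2l11 and Bbc3 were higher. In all, 5 members were higher and 1 was lower, where 18.9% and 20.1% of all tested genes were higher and lower, and 38.9% differed in either direction. The libraries of the genotypes did not overlap for 6 members, nor for 49.4% of all tested genes. The median log2 fold change of the members was 0.33, against -0.01 over all tested genes, and the median absolute log2 fold change was 0.42 against 0.33.

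**Figure D1:**
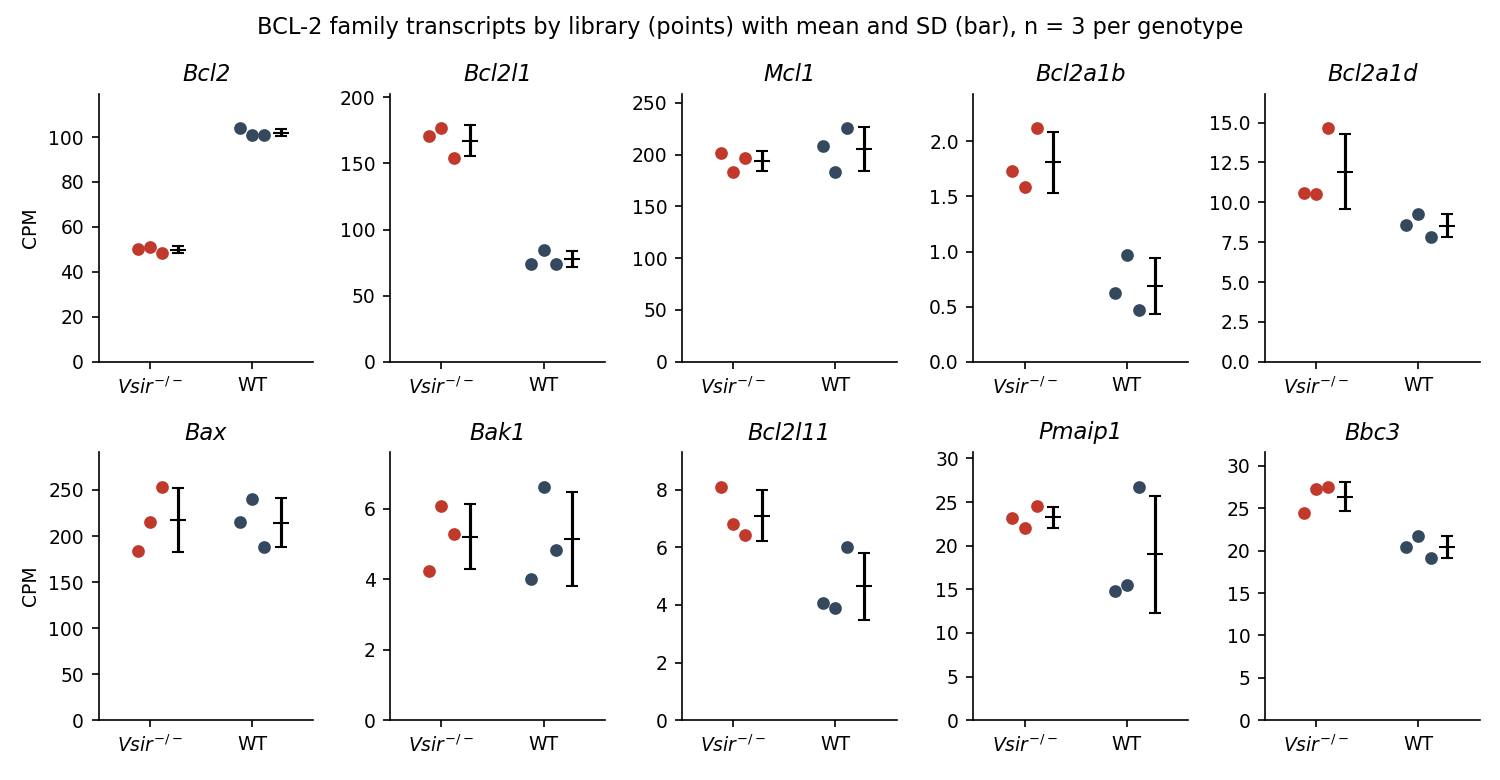
CPM of the 10 members in each library (points; Vsir-/- left, WT right; replicates 1 to 3 from left to right within a group), with the mean and SD (bars, n = 3); each vertical axis starts at 0. Bcl2 and Bcl2l1 separate the genotypes by the widest margins relative to their spread, and Mcl1, Bax, Bak1 and Pmaip1 overlap between them.

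Bcl2 lies on chromosome 1 of GRCm38, from 106538178 to 106714274 on the minus strand. It stood at 50.1, 51.2 and 48.4 CPM in Vsir-/- replicates 1, 2 and 3, against 103.8, 101.1 and 101.1 CPM in WT replicates 1, 2 and 3. Every Vsir-/- library lay below every WT library, and the gap was far wider than the spread within a genotype. The means were 49.9 ± 1.43 CPM in Vsir-/- and 102 ± 1.57 CPM in WT (SD, n = 3 each; log2 fold change -1.03, standard error 0.08, 95% confidence interval (CI) -1.22 to -0.85, edgeR adjusted p = 7.76e-06). A change of this size or less was seen in 89.2% of the tested genes. The call held in all 15 alternatives tried, with log2 fold changes between -1.05 and -0.99. The T cell markers Cd3e and Cd3g, whose mRNA stood at 3.94 and 10.8 CPM in Vsir-/- and 8.63 and 39.6 CPM in WT, were lower as well (3 of the 7 markers listed were in the table, and their summed level was 12.8 to 17.9 CPM in Vsir-/- against 45.0 to 50.5 CPM in WT). The sort removed cells with CD3 on their surface, and the part of these transcripts in the fall of Bcl2 was not tested. On the opposite strand D630008O14Rik covers 6.09% of the exonic bases of Bcl2, and no source says that the counting used strand.

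Bcl2l1 lies on chromosome 2 from 152780668 to 152831728, on the minus strand. BCL-XL is the survival protein that many activated lymphocytes induce. Its gene stood at 171, 176 and 154 CPM in Vsir-/- replicates 1, 2 and 3, against 74.3, 84.8 and 74.1 CPM in WT replicates 1, 2 and 3. The lowest Vsir-/- library was well above the highest WT library. Means were 167 ± 11.7 CPM in Vsir-/- and 77.7 ± 6.10 CPM in WT (SD, n = 3; log2 fold change 1.10, standard error 0.10, 95% CI 0.89 to 1.31, edgeR adjusted p = 1.17e-05), a 2.15-fold difference. The call held in all 15 alternatives, where the log2 fold change was 1.07 to 1.18. The counts are per gene, so the long, survival-promoting splice form and the short, death-promoting one known for this gene were not separated.

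Within a library, the ratio of Bcl2l1 to Bcl2 does not depend on scaling. On the log2 scale it was 1.77, 1.78 and 1.67 in Vsir-/- replicates 1, 2 and 3, against -0.48, -0.25 and -0.45 in WT replicates 1, 2 and 3. The ratio is one of counts, not corrected for transcript length, and its sign therefore says nothing of which gene had more transcripts. Per kilobase of the longest transcript Bcl2l1 was above Bcl2 in both genotypes (65.0 against 6.94 in Vsir-/- and 30.3 against 14.2 in WT), and per kilobase of coding sequence it was above Bcl2 in Vsir-/- (239 against 70.5) and below it in WT (111 against 144). The difference between the genotypes is the same with any length. The mean log2 ratio was 1.74 ± 0.06 in Vsir-/- and -0.40 ± 0.12 in WT (SD, n = 3), a difference of 2.14 that is given as a description with no test, since the genes were paired with their changes known. With single libraries left out the difference lay between 2.09 and 2.21. Of the summed CPM of the 5 survival genes, Bcl2 made up 11.5% to 12.1% in Vsir-/- libraries and 24.8% to 26.7% in WT libraries, and Bcl2l1 made up 37.0% to 41.7% in Vsir-/- and 18.1% to 22.4% in WT. The sum itself was 425 ± 9.66 CPM in Vsir-/- and 394 ± 14.9 CPM in WT, and these shares and sums are of counts with no correction for length.

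**Figure D2:**
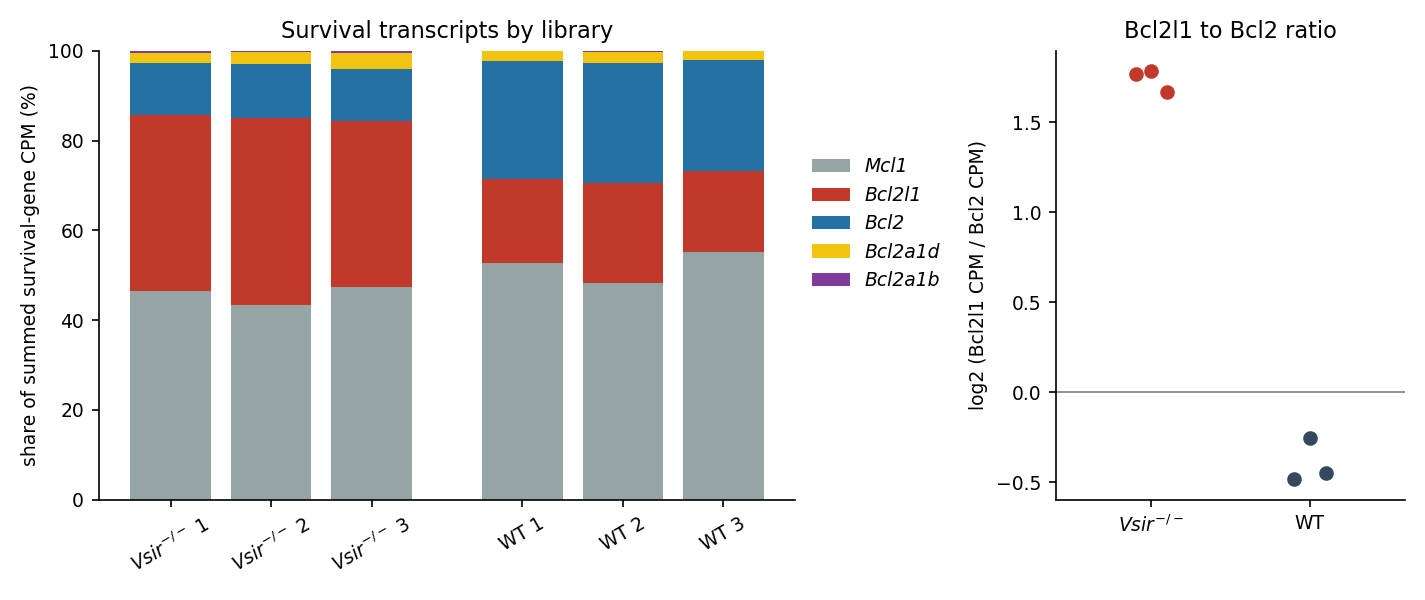
Left, the share of each survival gene in their summed CPM (stacked bars, percent, 1 bar per library; not corrected for gene length); right, the log2 ratio of Bcl2l1 to Bcl2 CPM in each library (points). Vsir-/- libraries hold 37.0% to 41.7% Bcl2l1 and 11.5% to 12.1% Bcl2, WT libraries 18.1% to 22.4% and 24.8% to 26.7%, and the count ratio is higher in every Vsir-/- library than in any WT library, and its position against 0 depends on transcript length.

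Mcl1, on chromosome 3 from 95658788 to 95663176, encodes a short-lived survival protein that is largely set by its translation and decay. It stood at 202, 183 and 197 CPM in Vsir-/- libraries, against 208, 183 and 225 CPM in WT libraries. The genotypes overlapped. The means were 194 ± 9.65 CPM in Vsir-/- and 206 ± 21.2 CPM in WT (log2 fold change -0.08, 95% CI -0.29 to 0.13, edgeR adjusted p = 0.536). It took 43.3% to 47.4% of the survival counts, not corrected for length, in Vsir-/- libraries and 48.3% to 55.1% in WT.

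Bcl2a1b and Bcl2a1d are copies of the gene of A1, a survival protein of activated leukocytes, on chromosome 9 (89199209 to 89207827 on the plus strand and 88723285 to 88731914 on the minus strand). The mouse carries 4 annotated copies, and Bcl2a1a and Bcl2a1c were not analysed here. The coding sequences of Bcl2a1b and Bcl2a1d, each of 516 bases without the stop codon, were 98.8% identical, with 6 differences, and 57.6% of the 50-base windows of the Bcl2a1b transcript also occur in that of Bcl2a1d. The first 60 coding bases are shown because they hold 2 of the 6 differences and show how little a short read has to tell the copies apart. The capitals mark the differing bases, G4T and T48C from Bcl2a1b to Bcl2a1d, counted from 1 at the A of the start codon (GENCODE M21, GRCm38).
Bcl2a1b: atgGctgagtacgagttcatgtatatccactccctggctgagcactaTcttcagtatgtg
Bcl2a1d: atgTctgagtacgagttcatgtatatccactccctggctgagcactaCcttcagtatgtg

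How the authors' counting divided shared reads between the copies is not stated, and their deposited counts are fractional. The single values are therefore uncertain. Bcl2a1b also shares 49.1% of its exonic bases with the annotated gene Gm29094 on the same strand. Bcl2a1b had 1.73, 1.58 and 2.12 CPM in Vsir-/- replicates 1, 2 and 3, against 0.626, 0.970 and 0.466 CPM in WT replicates 1, 2 and 3, which rests on 27, 26 and 34 counts against 10, 28 and 8 counts. The genotypes did not overlap (log2 fold change 1.34, standard error 0.35, 95% CI 0.57 to 2.11, edgeR adjusted p = 0.0112). WT replicate 3, with 8 counts, was below the level of the count filter, so Bcl2a1b was tested only because its Vsir-/- libraries were higher. Bcl2a1d was the more abundant copy, at 10.6, 10.5 and 14.6 CPM in Vsir-/- and 8.58, 9.25 and 7.80 CPM in WT. Its difference was small (log2 fold change 0.48, 95% CI 0.11 to 0.84, edgeR adjusted p = 0.0419), and the call was lost without Vsir-/- replicate 3 (edgeR adjusted p = 0.125) or WT replicate 1 (0.102), 2 (0.0541) or 3 (0.109).

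Summed, the copies had 12.3, 12.1 and 16.7 CPM in Vsir-/- libraries, against 9.20, 10.2 and 8.27 CPM in WT libraries. The sums did not overlap, and they averaged 13.7 ± 2.62 CPM in Vsir-/- and 9.23 ± 0.9745 CPM in WT (SD, n = 3; log2 fold change 0.57, 95% CI 0.21 to 0.93, edgeR adjusted p = 0.0188). Without Vsir-/- replicate 3 the edgeR adjusted p was 0.0535, without WT replicate 1 it was 0.0567 and without WT replicate 3 it was 0.0567. A1 is abundant in neutrophils and mast cells. The 3 neutrophil markers in the table, of 5 listed, summed to 0.257 to 0.426 CPM in Vsir-/- and 0.175 to 0.797 CPM in WT. The 2 mast cell and basophil markers in the table, of 4 listed, summed to 2.96 to 5.73 CPM in Vsir-/- and 1.69 to 2.74 CPM in WT. Of these Mcpt8, a basophil protease, was higher in Vsir-/- (4.31 ± 1.42 CPM, against 0.812 ± 0.215 CPM in WT) and Cpa3, a mast cell protease, was lower (0.0214 ± 0.0371 CPM, against 1.25 ± 0.379 CPM in WT), and their part in the Bcl2a1 difference was not tested.

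Bax lies on chromosome 7 from 45461697 to 45466898. Its product waits in the cytosol and enters the mitochondrial membrane on activation. It stood at 184, 215 and 253 CPM in Vsir-/- libraries, against 215, 241 and 188 CPM in WT libraries. The genotypes overlapped over nearly their whole range (218 ± 34.8 CPM in Vsir-/- and 215 ± 26.3 CPM in WT; log2 fold change 0.02, 95% CI -0.26 to 0.30, edgeR adjusted p = 0.922). An annotated gene on the same strand, Gm45808, shares 12.2% of the exonic bases of Bax.

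Bak1, on chromosome 17 from 27019810 to 27029009, encodes the pore former that sits in the mitochondrial membrane. It had 4.24, 6.08 and 5.29 CPM in Vsir-/- libraries and 4.01, 6.62 and 4.83 CPM in WT libraries. Replicate 2 was the highest library of each genotype, and the genotypes overlapped (log2 fold change -0.0046, 95% CI -0.50 to 0.49, edgeR adjusted p = 0.99). On the opposite strand Ggnbp1 covers 25.5% of the exonic bases of Bak1, and no source says that the counting used strand.

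**Figure D3:**
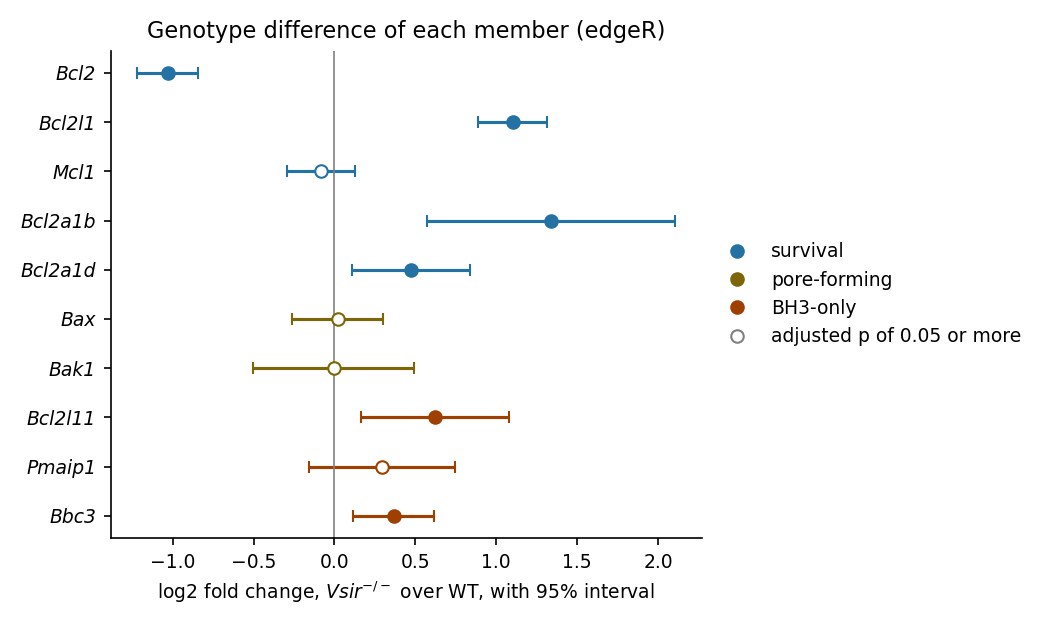
Log2 fold change of each member, Vsir-/- over WT, with its 95% CI (bars; edgeR, n = 3 per genotype); filled points have an adjusted p under 0.05, and colours give the role. Bcl2 stands at -1.03 and Bcl2l1 at 1.10, the intervals of Mcl1, Bax, Bak1 and Pmaip1 hold 0, and that of Bcl2a1b, which rests on 8 to 34 counts per library, is the widest.

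Of the BH3-only genes Bcl2l11, on chromosome 2 from 128126038 to 128162547, encodes BIM, the main trigger of death in lymphocytes deprived of cytokine. It had 8.09, 6.81 and 6.41 CPM in Vsir-/- replicates 1, 2 and 3, against 4.07, 3.88 and 5.997 CPM in WT replicates 1, 2 and 3. The genotypes did not overlap, but WT replicate 3 came close to the lowest Vsir-/- library. The means were 7.10 ± 0.880 CPM in Vsir-/- and 4.65 ± 1.17 CPM in WT (SD, n = 3; log2 fold change 0.62, standard error 0.21, 95% CI 0.17 to 1.08, edgeR adjusted p = 0.0346). The call was lost without Vsir-/- replicate 1 (edgeR adjusted p = 0.106), Vsir-/- replicate 2 (0.0647), WT replicate 1 (0.115) or WT replicate 2 (0.124).

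Bbc3, on chromosome 7 from 16308393 to 16318205, encodes PUMA, which binds all survival members. It had 24.4, 27.2 and 27.5 CPM in Vsir-/- libraries, against 20.4, 21.8 and 19.2 CPM in WT libraries. The Vsir-/- libraries all exceeded the WT libraries, by a small margin (26.4 ± 1.72 CPM in Vsir-/- and 20.5 ± 1.31 CPM in WT; log2 fold change 0.37, standard error 0.11, 95% CI 0.12 to 0.62, edgeR adjusted p = 0.0259). The call was lost without Vsir-/- replicate 2 (edgeR adjusted p = 0.0644), WT replicate 1 (0.0877) or WT replicate 3 (0.0663).

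Pmaip1, on chromosome 18 from 66458533 to 66465565, encodes NOXA, which binds chiefly MCL-1 and A1. It had 23.2, 22.1 and 24.5 CPM in Vsir-/- libraries, against 14.8, 15.6 and 26.7 CPM in WT libraries. The Vsir-/- libraries were close together, whereas WT replicate 3 was above all of them and the other WT libraries, which share a label number, were well below. The test did not call it (log2 fold change 0.30, 95% CI -0.16 to 0.75, edgeR adjusted p = 0.284). Without WT replicate 3 the log2 fold change was 0.61 and the edgeR adjusted p was 0.00415, so that this library decides the call. Without WT replicate 1, the libraries gave 2 members higher in place of 5, and without Vsir-/- replicate 2 or WT replicate 2 they gave 3. Bcl2 lower and Bcl2l1 higher were among the calls in each case.

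The sum of the 3 BH3-only genes was 55.7 to 58.4 CPM in Vsir-/- libraries and 39.3 to 51.9 CPM in WT libraries. Set against the survival genes of the same library, there were 12.8 to 14.1 BH3-only counts per 100 survival counts in Vsir-/- and 9.93 to 12.7 in WT. Bax had 42.3 to 60.9 counts per 100 survival counts in Vsir-/- and 46.0 to 63.5 in WT, which overlapped. These sums are descriptions over genes chosen with results known and were not tested.

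**Figure D4:**
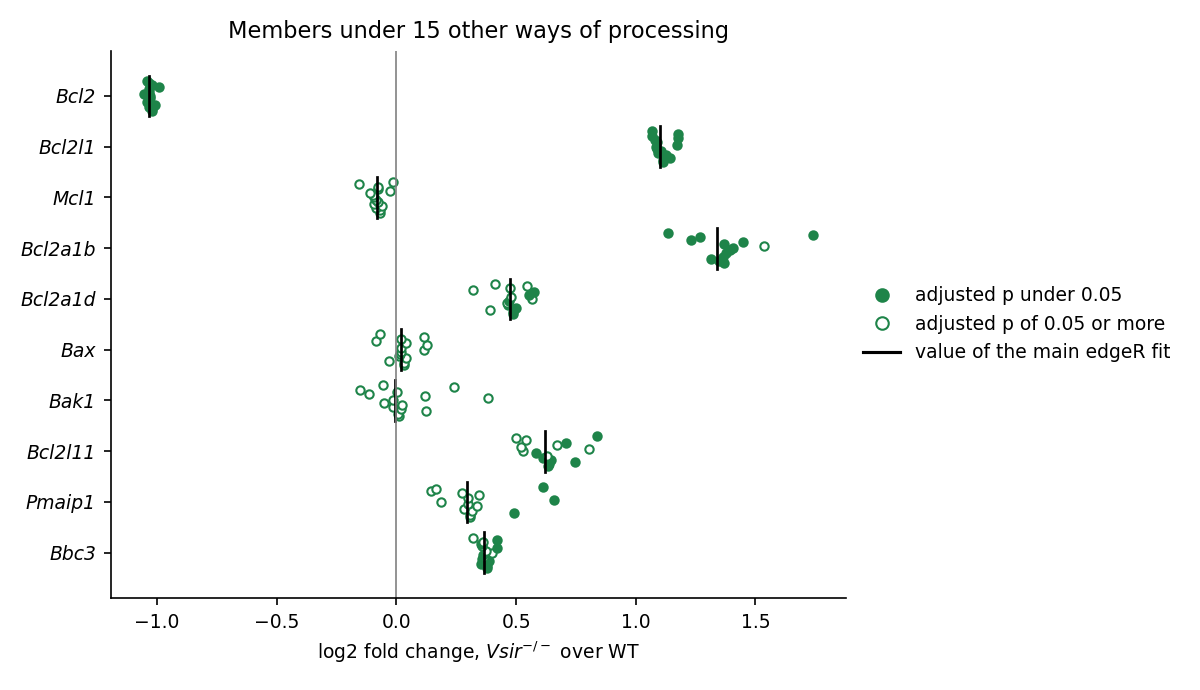
Log2 fold change of each member, Vsir-/- over WT, under each of 15 other ways of processing (points; 14 for Bcl2a1b), with the value of the main edgeR fit (black line); filled points have an adjusted p under 0.05. All points of Bcl2 and Bcl2l1 are filled and lie between -1.05 and -0.99 and between 1.07 and 1.18, whereas Bcl2a1b, Bcl2a1d, Bcl2l11, Pmaip1 and Bbc3 have points of both kinds.

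The order of the members was taken per kilobase of the longest annotated transcript, since counts alone favour long transcripts. In Vsir-/- aILC2s Bax was first at 198 ± 31.6 CPM per kilobase, followed by Bcl2l1 at 65.0 ± 4.56 and Mcl1 at 56.8 ± 2.82 CPM per kilobase. Then came Bbc3 (14.6), Bcl2a1d (13.8), Pmaip1 (8.53), Bcl2 (6.94), Bcl2a1b (2.22), Bak1 (2.18) and Bcl2l11 (1.41 CPM per kilobase), where the neighbours Bbc3 and Bcl2a1d, and Bcl2a1b and Bak1, overlapped between libraries. In WT aILC2s the order was Bax at 195 ± 23.9, Mcl1 at 60.1 ± 6.21, Bcl2l1 at 30.3 ± 2.37 and Bcl2 at 14.2 ± 0.218 CPM per kilobase, then Bbc3, Bcl2a1d, Pmaip1, Bak1, Bcl2l11 and Bcl2a1b. There Bbc3 and Bcl2a1d, Bcl2a1d and Pmaip1, and Bcl2l11 and Bcl2a1b overlapped. Bcl2 was thus in place 7 in Vsir-/- and in place 4 in WT, and Bcl2l1 in places 2 and 3. The order depends on the length used, since the transcripts of Bcl2 and Bcl2l11 are long (7191 and 5036 bases). Per kilobase of coding sequence it was Bax, Bcl2l1, Mcl1, Pmaip1, Bcl2, Bbc3, Bcl2a1d, Bcl2l11, Bak1 and Bcl2a1b in Vsir-/-, where Bcl2 was in place 5. In WT it was Bax, Mcl1, Bcl2, Bcl2l1, Pmaip1, Bbc3, Bcl2a1d, Bak1, Bcl2l11 and Bcl2a1b, where Bcl2 was in place 3 and Bcl2l1 in place 4.

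Promoter sequences were searched for 9 members, all but Pmaip1, in 14 windows of 300 bases (250 before and 50 after an annotated start; RefSeq, GRCm38.p6). The search covered both strands and 5 motifs, GTAAACA (FOXO factors), TTCNNNGAA (STAT factors), the NF-kB consensus, TGACGTCA (CRE) and CACGTG (E-box), because FOXO, STAT and NF-kB factors are known regulators of the family. The FOXO letters were found in windows of Bcl2l11 (1 of 2 windows) and Bbc3 (1 of 3 windows). With no window for Pmaip1, the match cannot be set against a BH3-only gene that was not called. The letters occur in 3.65% of the 32851 promoters in the reference table. In Bcl2l11 the match begins 227 bases before the start and in Bbc3 167 bases before, and the bases around each are shown with the match in capitals. In Bbc3 the letters are on the other strand (TGTTTAC).
Bcl2l11 (chr2:128125802-128125828, plus strand): gacactaggGTAAACAcgccggggtgg
Bbc3 (chr7:16310085-16310111, plus strand): tggcgggttTGTTTACaaacaatgggg

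The E-box letters, present in 7.15% of promoters, were found in windows of Bbc3 and Bax. The STAT, NF-kB and CRE letters, present in 8.30%, 0.155% and 1.79% of promoters, were in none of the 14 windows. This says nothing of sites elsewhere or of other spellings of a site. The NF-kB letters are too rare for their absence from 14 windows to carry information. A match is a description of letters and not a bound site. Foxo1 stood at 61.6 ± 2.43 CPM in Vsir-/- and 65.3 ± 3.22 CPM in WT (log2 fold change -0.08, edgeR adjusted p = 0.498), and Foxo3 at 6.46 ± 0.642 CPM in Vsir-/- and 6.49 ± 1.19 CPM in WT (log2 fold change -0.02, adjusted p = 0.955). Both were named after their values were seen.

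Of 17 other BCL-2 family genes listed, 12 were tested. In Vsir-/- aILC2s 5 of them were higher and 3 lower, and 4 were not called (66.7% called, against 38.9% of all tested genes, with a median log2 fold change 0.17). Bcl2l15 and Bcl2l14, divergent family members of little-known role, were both among the genes that rose, Bcl2l15 with a log2 fold change of 1.68 (11.6 ± 2.43 CPM in Vsir-/- and 3.604 ± 0.412 CPM in WT) and Bcl2l14 with one of 1.73 (1.43 ± 0.410 CPM in Vsir-/- and 0.448 ± 0.319 CPM in WT). Bnip3, a mitochondrial protein of mitophagy and hypoxia, rose by 0.55, Bok, a pore former related to BAX, by 0.76 and Bid, a BH3-only protein that caspase-8 cleaves, by 0.49 on the log2 scale. Bik, a BH3-only protein of the endoplasmic reticulum, had a log2 fold change of -0.64 (6.37 ± 1.13 CPM in Vsir-/- and 9.91 ± 0.360 CPM in WT), Bad, a BH3-only protein that survival kinases inactivate by phosphorylation, of -0.53, and Becn1, an autophagy protein that binds BCL-2, of -0.22. Thus BH3-only genes were found among those that rose and those that fell.

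The calls of Bik, Bok, Bid, Bnip3 and Bcl2l15 held with any single library left out. Bad was no longer called when Vsir-/- replicate 1 was dropped (edgeR adjusted p = 0.0716), Vsir-/- replicate 2 (0.0530) or WT replicate 2 (0.0844), and Bcl2l14 without Vsir-/- replicate 2 (0.0728), WT replicate 1 (0.0589) or WT replicate 2 (0.0691). Without WT replicate 3 the log2 fold change of Bcl2l14 was 2.42 in place of 1.73. The WT libraries alone would not have taken Bcl2l14 past the count filter, so it was tested only because its Vsir-/- libraries were higher. Becn1 was not called with any one Vsir-/- library left out (0.0822 to 0.114), nor without WT replicate 1 (0.188) or WT replicate 2 (0.0977). The list then had 1 gene lower in place of 3 without Vsir-/- replicate 1, Vsir-/- replicate 2 or WT replicate 2.

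Of 13 genes that act with the members or after them at the mitochondria, each of which was tested, 4 rose, 1 fell and 8 were not called (median log2 fold change 0.22), and the 38.5% called were close to the 38.9% of all tested genes. Casp9, the gene of the initiator caspase of the pathway, was the one that fell. It stood at 15.3 ± 0.411 CPM in Vsir-/- and 24.9 ± 2.20 CPM in WT (log2 fold change -0.70, edgeR adjusted p = 8.70e-04). In contrast Apaf1, the scaffold on which caspase-9 is activated, was higher at 171 ± 37.9 CPM in Vsir-/- and 96.6 ± 22.9 CPM in WT (log2 fold change 0.83), as were the nuclease gene Endog (0.66), the protease gene Htra2 (0.45) and Cycs, the gene of cytochrome c (0.31). The call of Cycs was lost without Vsir-/- replicate 1 (edgeR adjusted p = 0.0683), Vsir-/- replicate 3 (0.12), WT replicate 1 (0.0954) or WT replicate 3 (0.15). Dnm1l, the gene of the mitochondrial fission factor DRP1, and Xiap, the gene of a caspase inhibitor, did not pass.

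Of 25 regulators of the members, each of which was tested, 13 rose, 2 fell and 10 were not called (60% called, against 38.9% of all tested genes, with a median log2 fold change 0.33). Stat5a, which conveys IL-2 and IL-7 signals to the survival genes, had a log2 fold change of 1.26 (133 ± 12.1 CPM in Vsir-/- and 55.5 ± 0.789 CPM in WT, edgeR adjusted p = 4.14e-06). The receptor genes Il2ra (1.13), Il7r (0.96) and Il2rg (0.56) rose too, as did Pim1, a kinase that phosphorylates BAD (0.55), and Trp53, which encodes p53 (0.53). Nfkb1, an NF-kB subunit, fell to 128 ± 9.54 CPM in Vsir-/-, against 370 ± 11.5 CPM in WT (log2 fold change -1.53, edgeR adjusted p = 5.65e-07), and Jak3, a kinase bound to IL-2 and IL-7 receptors, had a log2 fold change of -0.35. The call of Jak3 was lost without Vsir-/- replicate 1 (edgeR adjusted p = 0.0559) or WT replicate 2 (0.0588), which left 1 gene lower. Rel, another NF-kB subunit, was higher, and is named here although the rule did not select it (log2 fold change 1.33, 11.02 ± 0.978 CPM in Vsir-/- and 4.46 ± 1.75 CPM in WT). Stat5b, the other STAT5 gene, is also named outside the rule and was not called. It stood at 125.5 ± 16.3 CPM in Vsir-/- and 119.7 ± 1.17 CPM in WT (log2 fold change 0.07, edgeR adjusted p = 0.643).

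**Figure D5:**
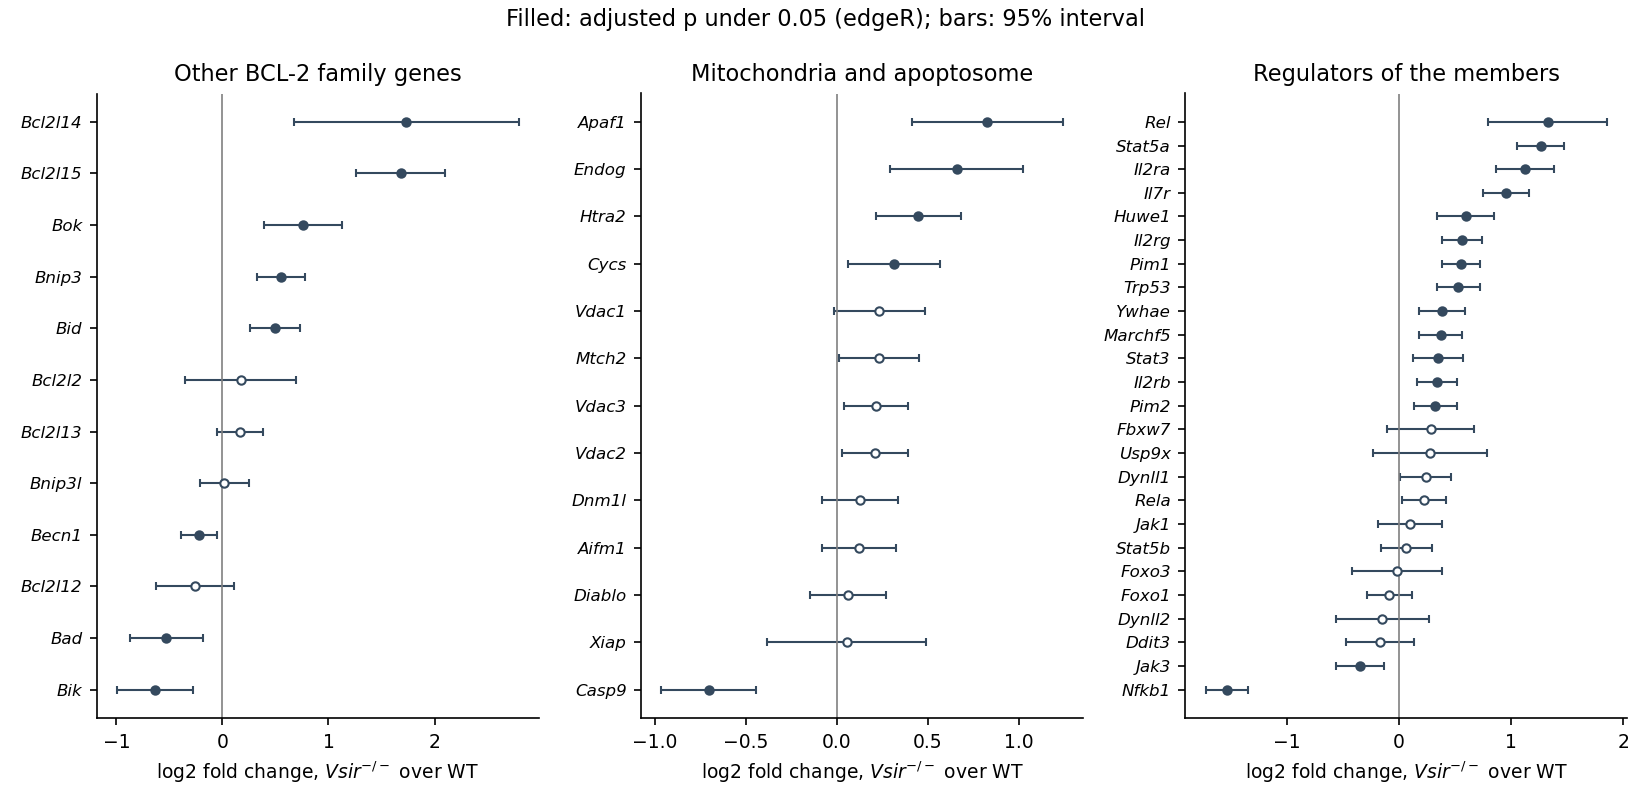
Log2 fold change, Vsir-/- over WT, with 95% CIs (bars; edgeR, n = 3 per genotype), of 12 other BCL-2 family genes, 13 genes of the mitochondria and apoptosome and 25 regulators; filled points have an adjusted p under 0.05. Casp9 (-0.70) is the filled point below 0 in the middle panel, and Nfkb1 (-1.53) stands apart from the other regulators.

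Over the 6 libraries and 8330 genes ranked, the genes whose log2 CPM followed Bcl2 most closely were Phc2, Fgl2 and Cit (Pearson r of 0.9993, 0.9993 and 0.9991), and those that followed Bcl2l1 were Hnrnpm, Cldnd1 and Serpina3g (0.9983, 0.9983 and 0.9982). With only 6 points that split by genotype, such values mark genes that differ between the genotypes with little spread, and they are given as a description.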

How the data were processed

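Lung aILC2s were profiled by bulk RNA-Seq in 3 Vsir-/- and 3 WT libraries. The authors deposited estimated counts per gene, not scaled, made with Partek 10.0, STAR 2.7.8 and mm10 according to the submitters' processing notes, which also name DESeq2; the annotation, the counting of shared reads and any filter are not given in the sources used here. All 6 columns of samples were used. Counts were rounded. With R 4.3.3 and edgeR 4.0.16, 13166 of 15212 genes passed filterByExpr. This count filter asks for the CPM that 10 counts make at the median library total, in at least 3 libraries, and for 15 counts in all. A quasi-likelihood F test after TMM scaling compared the genotypes with no other term. Each standard error was obtained by dividing the coefficient (log2) by the square root of its F. Alternatives used DESeq2 1.42.0, limma 3.58.1 and other filters, scalings and sets of libraries. Libraries of 1 genotype differed beyond sampling noise in every pair (chi-square over its degrees of freedom, 10.2 to 26.8), and all were kept. Replicates 1 and 2, which share a label number, were the most alike pair of each genotype. Their values were 10.2 in WT, against 12.1 and 26.8, and 12.2 in Vsir-/-, against 20.1 and 21.2. Such values cannot tell whether libraries came from the same animals or RNA. Intervals cover the spread between libraries. The members, lists, alternatives and motifs were chosen with earlier results of these data known. All members were named, and of each list up to 6 called genes per direction, by smallest p; some genes of the mitochondrial list are not reported here and were left out of its counts. The edgeR fit was tested on simulated counts with 200 of 13166 genes changed, where it recovered 100% of the 3-fold changes. Far more genes were called in the real data and every member difference was under 3-fold, so this does not test the member calls. Positions and lengths are from GENCODE M21 (GRCm38), the build of mm10.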

Additional observations from a re-analysis of the deposited data

How the results depend on the processing

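Bcl2 and Bcl2l1 kept their direction and their call in all 15 alternatives, and so did the lack of a call of Mcl1, Bax and Bak1; Bcl2a1b was called in 13 of 14, having no value under a minimum of 5 CPM. Limits are the 8 to 34 counts of Bcl2a1b, the 3 libraries per genotype and the shared label numbers. A further limit is the label suffix S0, which WT replicates 2 and 3 carry and no Vsir-/- library does. It thus partly goes with genotype, and what it stands for is not stated. No consistent pairing of the libraries by replicate number was seen (deviations of equally numbered libraries correlated at -0.09, 0.20 and -0.45 over 8567 genes, and 1 of 3 Vsir-/- and 0 of 3 WT libraries correlated best with the library of its own number). With 3 libraries per genotype these correlations constrain each other and cannot exclude a pairing. With a replicate block, 1922 genes were higher and 2172 lower, 2 members were higher, and log2 fold changes were 0.46 for Bcl2a1d (adjusted p = 0.0878 from edgeR), 0.63 for Bcl2l11 (0.0609) and 0.37 for Bbc3 (0.0639).

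With the libraries of 1 label number summed, 2 against 2, 2 members were higher, with 0.57 for Bcl2a1d, 0.53 for Bcl2l11 and 0.40 for Bbc3 (adjusted p = 0.0672, 0.137 and 0.0863 from edgeR); of the other family genes 0 were lower and of the mitochondrial genes 2 were higher. With WT replicate 1 alone against the 3 Vsir-/- libraries (no suffix S0), where the lone library is assumed to vary like the others, 1206 genes were higher and 1274 lower, 2 members higher, 2 other family genes higher and 0 lower, 1 mitochondrial gene higher and 0 lower, and 1 regulator lower. Log2 fold changes there were 1.53 for Bcl2a1b, 0.48 for Bcl2a1d, 0.81 for Bcl2l11, 0.37 for Bbc3 and 0.58 for the Bcl2a1 sum, none called (adjusted p = 0.0784 to 0.240 from edgeR), and 0.66 for Pmaip1, which was called (0.0376). With limma voom, Bcl2a1d was at 0.39 (adjusted p = 0.0509) and Pmaip1 at 0.49 (0.0351).

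With single libraries left out, 2 to 4 members were higher. Log2 fold changes ranged from 0.32 to 0.57 for Bcl2a1d, 0.50 to 0.84 for Bcl2l11, 0.15 to 0.61 for Pmaip1, 0.32 to 0.42 for Bbc3 and 0.42 to 0.67 for the Bcl2a1 sum. Of the other family genes 1 to 3 were lower, and of the regulators 1 to 2. The causes were not tested.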
